A study of Mus musculus with 3 samples.

Results

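In differentiating ATDC5 cells with *Tet1* knockdown (KD), 6 genes for proteins of the mitochondrial ribosome and the mitochondrially encoded gene *ND6* measured lower than in control cells with a nontarget (NT) hairpin. They belong to a set of 9 probe sets for 8 genes, taken from the 1524 probe sets in the authors' deposited table of differing probe sets, of which 1330 have a gene name. The set holds every row whose gene symbol begins with Nduf, with Cox and a digit of 4 to 8, or with Atp5, Uqcr, Mrpl, Mrps, Timm or Tomm, or is ND6. *Mrpl11*, *Mrpl20*, *Mrpl23* and *Mrpl34* encode proteins of the large subunit of the mitochondrial ribosome, and *Mrps17* and *Mrps21* proteins of the small subunit. *ND6* was the sole row for a subunit of the respiratory chain. The eighth gene, listed as Cox4nb, is *Emc8* in RefSeq. Its old symbol stands for a neighbour of a cytochrome oxidase gene, and the gene encodes a subunit of the endoplasmic reticulum membrane protein complex, which inserts proteins into that membrane. It met the choice by its name alone and is described apart. No row carried a symbol starting with Nduf, Atp5, Uqcr, Timm or Tomm, for which RefSeq lists 49, 17, 8, 16 and 10 protein-coding genes, so the set does not describe the respiratory chain beyond *ND6*. RefSeq lists 78 protein-coding Mrpl and Mrps genes, and those other than the 6 were not analysed here, since the files name only the probe sets the authors had picked.

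Mitochondria carry a small genome of their own, and all proteins it encodes are parts of the respiratory chain or of the ATP synthase. These proteins are made on the mitochondrial ribosome, whose RNAs come from the mitochondrial genome and whose proteins are encoded in the nucleus, made in the cytosol and imported. ND6 is a membrane subunit of complex I, the first enzyme of the chain, and its gene is the single protein-coding gene on the light strand of the mitochondrial DNA. Chondrocytes of the growth plate live at low oxygen and draw much of their energy from glycolysis.

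Expression was measured on day 15 of culture with insulin, transferrin and selenium, which drives this wild-type mouse chondroprogenitor line towards cartilage. The *Tet1* KD group had 2 arrays, Tet1sh1 and Tet1sh2, each of cells with a different lentiviral short hairpin RNA against *Tet1* (hairpin 1 and hairpin 2), and the NT group had 1 array of cells with a nontarget hairpin. All cells were of this 1 line, and the arrays analysed here hold 1 culture per hairpin. The spread behind the p-values is thus the disagreement of the 2 *Tet1* KD arrays, which mixes hairpin, culture and array. For each probe set limma draws it mostly from all tested probe sets by their intensity (13.3 prior degrees of freedom). Less comes from the probe set itself (1 residual degree of freedom), so a limma SE or interval is not that gene's own difference between hairpins. Values are dChip intensities on a linear scale, normalized between arrays, and for NT the table also gives the dChip standard error (SE), which covers the probes of 1 array and not a repeat of the culture. In RNA from a whole culture, fewer cells of a type and less RNA per cell cannot be told apart.

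The median intensity was 279.6 and 264 units on the *Tet1* KD arrays and 305 units on the NT array. *Tet1*, the target of the hairpins, measured lower than NT on each probe set named for it, and only probe sets the authors had picked carry a name. On the brightest it was at 843 and 726 units under hairpins 1 and 2 against 1626 units in NT (log2 difference -1.06 ± 0.31 (SE), limma adjusted p = 0.133). Of 13 chondrocyte markers 4 were named in the table, all lower in KD, and their summed intensity was 4185 units under hairpin 1 and 2812 units under hairpin 2, against 10759 units in NT. Of 5 markers each, 2 were named for fibroblasts, 1 for adipocytes, 2 for leukocytes and 0 for skeletal muscle. The 2 fibroblast markers *Dpt* and *Pdgfra* summed to 9150 and 6225 units in KD and 2321 units in NT, the adipocyte marker *Fabp4* measured 179 and 163 units in KD and 838 units in NT, and the 2 leukocyte markers summed to 3432 and 2220 units in KD and 4912 units in NT. They moved in opposite directions: *Cd68* fell to 1458 and 819.6 units in KD, against 4424 units in NT (limma adjusted p = 0.00459), and *Lyz2* rose to 1974 and 1400.1 units in KD, against 488 units in NT (limma adjusted p = 0.00977). No named marker was at 0. The authors had picked the named markers for a difference from NT on these same arrays, and 529 of all 1330 named rows were lower in KD. Markers without a named row are not in the sums, so the sums do not measure the make-up of the culture. These shifts of the named markers accompany the values below, and their part in them was not tested.

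All 9 probe sets lay below NT on both *Tet1* KD arrays, as did 48.3% of the 27311 probe sets that entered the test. The median log2 difference, KD minus NT, over the 8 genes was -0.96 with the brighter probe set of each gene, -0.81 under hairpin 1 and -1.03 under hairpin 2. Over the 6 ribosomal protein genes alone it was -0.88. The median over all tested probe sets was -0.12, and that over the 660 tested rows of the authors' table that were lower in KD was -1.06. All 9 met a fold of at least 1.5 with a difference of more than 100 units, against 5.94% of all 35512 probe sets on the lower side. In limma's test across the 27311 probe sets 1 of the 9, *Mrps21*, passed an adjusted p of 0.05, against 0.388% of all probe sets on the lower side. All 9 had an unadjusted p under 0.05, against 5.11%. The rows had been picked by the authors for their difference on these same arrays, with a bound of the fold of at least 1.5 per the file header (the study's methods give 2.5-fold), so these counts and the p-values below are a description and lend no support to a shift of the mitochondrial ribosome as a whole. The authors took rows of either direction, and 665 of the 1524 rows (43.6%) were lower in KD. The 9 probe sets share 1 NT array and are not independent. The set was also chosen with earlier results of these data known, and its common direction was not tested.

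**Figure D1:**
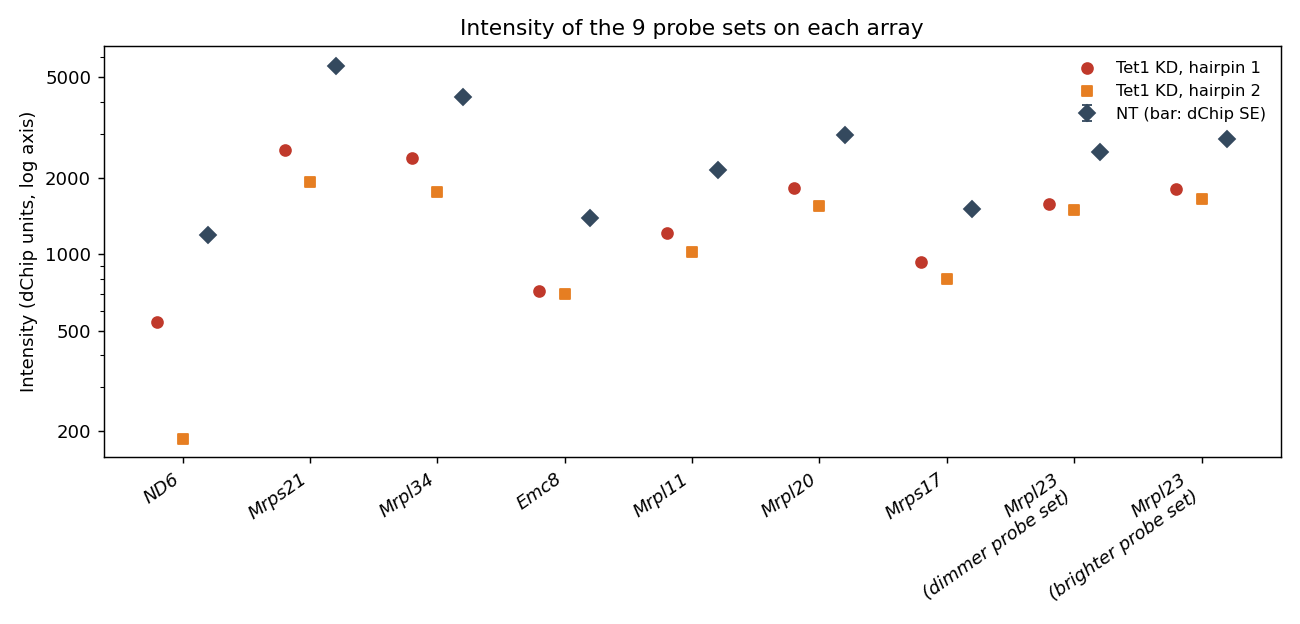
Intensity in dChip units (log axis) of the 9 probe sets on the arrays of *Tet1* KD hairpin 1, *Tet1* KD hairpin 2 and NT. Points are single arrays, bars on NT are the dChip SE (mostly hidden by the symbols), and both KD points lie under the NT point for each probe set, farthest apart for *ND6* at 543 and 187 units.

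Of the small subunit proteins, *Mrps21* had the larger difference. It encodes the protein bS21m and measured 2592 units under hairpin 1 and 1938 units under hairpin 2, against 5572 ± 44.3 units (dChip SE) in NT. Both KD arrays were thus far under NT, at 46.5% and 34.8% of its level, and the log2 difference of hairpin 2 minus hairpin 1 was -0.42, against -1.10 for hairpin 1 minus NT. On the log2 scale *Mrps21* fell by 1.31 ± 0.26 (SE, 95% interval -1.87 to -0.76, limma adjusted p = 0.0151), to 2265 ± 462 units in KD (SD, n = 2). It no longer passed after quantile normalization (limma adjusted p = 0.0800), median centring (0.0547), without the intensity trend (0.274) or with no filter on dim probe sets (0.758), so the call depends on the setting while the log2 difference stayed between -1.32 and -1.19.

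*Mrps17*, which encodes uS17m, an RNA-binding protein of the small subunit, measured 938 and 803 units under hairpins 1 and 2, against 1507 ± 20.0 units (dChip SE) in NT. The KD arrays held 62.2% and 53.3% of the NT level. The log2 difference was -0.80 ± 0.31 (SE), and it did not pass (limma adjusted p = 0.317).

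Among the large subunit proteins, *Mrpl34* had the largest difference. It encodes bL34m. Its intensity was 2407 units under hairpin 1 and 1758 units under hairpin 2, against 4170 ± 40.8 units (dChip SE) in NT. The hairpins were 57.7% and 42.2% of NT, and the log2 difference of -1.02 ± 0.27 (SE, 95% interval -1.60 to -0.44) did not pass (limma adjusted p = 0.0844). It passed in 1 of the 8 alternative settings, with the minimum mean intensity raised to 150 units (0.0419). The highest limma adjusted p among the 8 was 0.776.

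*Mrpl11* encodes uL11m, part of the stalk base where translation factors bind in ribosomes. It measured 1210 and 1023 units under hairpins 1 and 2, against 2161 ± 21.9 units (dChip SE) in NT, a log2 difference of -0.96 ± 0.30 (SE, limma adjusted p = 0.153). *Mrpl20*, for bL20m, an RNA-binding protein of the large subunit, measured 1823 and 1560 units, against 2960 ± 21.5 units in NT (log2 difference -0.81 ± 0.27, limma adjusted p = 0.201). For both genes the KD arrays ranged from 47.4% to 61.6% of NT, and neither passed.

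*Mrpl23*, for uL23m, which in ribosomes lies at the exit of the peptide tunnel, was the gene with 2 probe sets in the set, both annotated to the same RefSeq transcript. On the brighter it measured 1817 and 1650 units under hairpins 1 and 2, against 2844 ± 32.5 units (dChip SE) in NT. On the dimmer it measured 1578 and 1499.9 units, against 2536 ± 29.9 units in NT. The probe sets gave nearly the same log2 difference, -0.72 ± 0.27 and -0.72 ± 0.27 (SE), and neither passed (limma adjusted p = 0.278 and 0.293). RefSeq also lists a pseudogene, *Mrpl23-ps1*, and whether either probe set reads it was not tested. *Mrpl23* had the smallest difference of the 8 genes, with KD means of 61.0% and 60.7% of NT on the 2 probe sets.

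**Figure D2:**
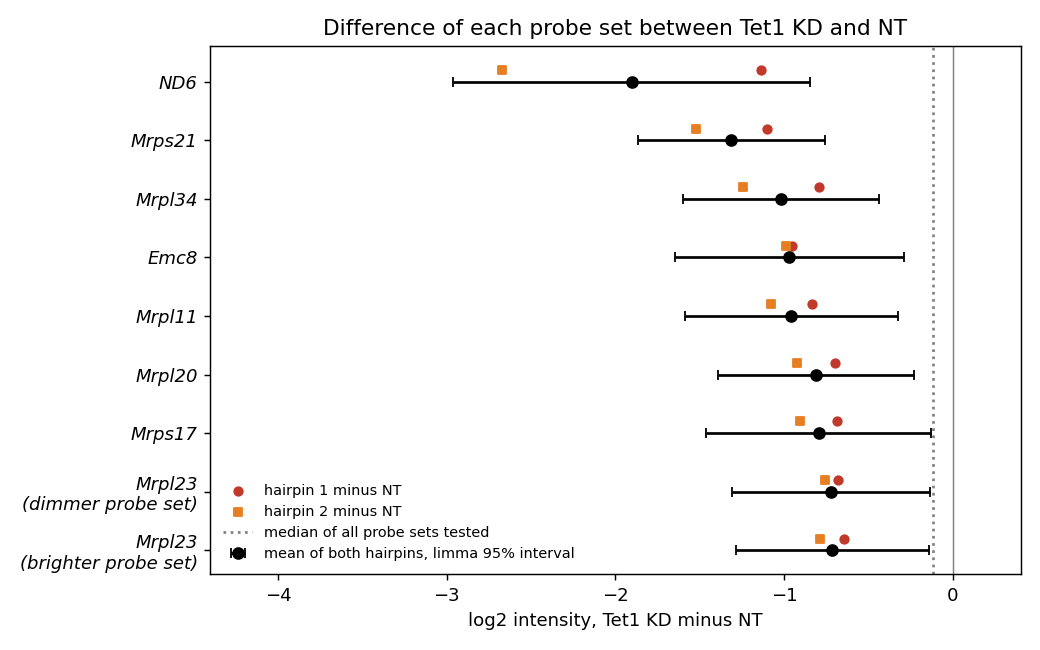
Log2 intensity of *Tet1* KD minus NT for the 9 probe sets. Black points are the mean of both hairpins with limma's 95% interval, coloured points the single hairpins and the dotted line the median of all tested probe sets at -0.12; the means run from -1.90 for *ND6* to -0.72 for *Mrpl23*, and no interval crosses 0.

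*ND6* stood apart in how the hairpins differed. It measured 543 units under hairpin 1 and 187 units under hairpin 2, against 1194 ± 28.1 units (dChip SE) in NT. Hairpin 1 was at 45.5% of NT and hairpin 2 at 15.7%, so the array with hairpin 2 held 34.5% of the level with hairpin 1. The log2 difference from NT was -1.90 ± 0.49 (SE, 95% interval -2.96 to -0.85) and did not pass (limma adjusted p = 0.0758), with KD at 365 ± 252 units (SD, n = 2). It passed in 1 of the 8 alternative settings, with the minimum mean intensity raised to 150 units (0.0391). The highest limma adjusted p among the 8 was 0.831. Without hairpin 1 the log2 difference was -2.67 and without hairpin 2 it was -1.14. The log2 difference of hairpin 2 minus hairpin 1 was -1.54, lower than in all but 0.300% of the tested probe sets. The probe set is annotated to an Ensembl transcript of *ND6*; other genes of the mitochondrial genome had no named row and were not analysed here, so no statement is made on the mitochondrial transcripts as a group.

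*Emc8* measured 718 and 699 units under hairpins 1 and 2, against 1389 ± 27.2 units (dChip SE) in NT. The hairpins differed least here, with hairpin 2 at 97.4% of hairpin 1, and the KD mean of 709 ± 13.3 units (SD, n = 2) was 51.0% of NT. The log2 difference of -0.97 ± 0.32 (SE) did not pass (limma adjusted p = 0.189).

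On each of the 9 probe sets hairpin 2 read lower than hairpin 1. The log2 difference, hairpin 2 minus hairpin 1, had a median of -0.23 over the 8 genes and ran from -1.54 in *ND6* through -0.45 in *Mrpl34* and -0.42 in *Mrps21* to -0.04 in *Emc8*. Hairpin 2 read lower than hairpin 1 in 54.6% of all tested probe sets, with a median difference of -0.04, and in 63.3% of the 665 rows of the authors' table that were lower in KD, with a median difference of -0.09 over the 660 of them that were tested. With 1 array per hairpin this order has no replicate check.

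**Figure D3:**
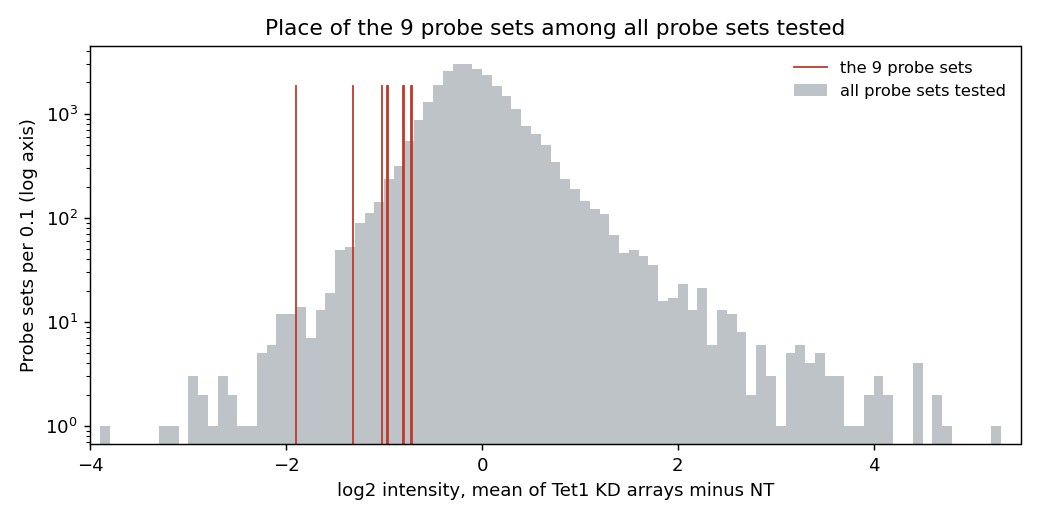
Number of tested probe sets (log axis) by log2 intensity of the mean of the *Tet1* KD arrays minus NT, in steps of 0.1, with the 9 probe sets as vertical lines. The lines lie on the lower side, between the percentiles 0.179 (*ND6*) and 5.64 (*Mrpl23*) of all 27311 probe sets, and the authors had picked these rows for a difference from NT.

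Among 259 other symbols, current and older, on 13 lists of mitochondrial function and glycolysis, 9 genes were named in the authors' table, 7 lower and 2 higher in KD. Of all 1330 named rows, 529 were lower in KD, and a common direction of the 9 genes was not tested. *Ppargc1a*, a coactivator that drives the expression of mitochondrial genes, passed the test on both probe sets named for it. On the brighter it measured 122 and 86.5 units under hairpins 1 and 2, against 629 ± 5.18 units (dChip SE) in NT, and on the log2 scale it fell by 2.61 ± 0.42 (SE, limma adjusted p = 0.00336). On the dimmer it measured 85.3 and 67.7 units in KD and 317 units in NT (log2 difference -2.06, limma adjusted p = 0.0264). With no filter on dim probe sets neither passed (0.758 for both), and the dimmer did not pass after quantile normalization (0.159), median centring (0.0514), cyclic loess (0.0618) or without the intensity trend (0.0708). None of the other 8 passed, and 0.388% of all tested probe sets passed on the lower side. *Mterf1a* (listed as Mterf), which binds mitochondrial DNA and ends transcription, measured 436 and 447 units in KD and 789 units in NT. *Immp1l* and *Immp2l*, the peptidases that trim proteins arriving at the inner membrane, measured 1511 and 1368 units in KD against 2645 units in NT (the brighter of the *Immp1l* probe sets), and 478 and 466 units in KD against 1035 units in NT. *Tmem126b*, an assembly factor of complex I, measured 556 and 528 units in KD and 932 units in NT (limma adjusted p = 0.385).

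*Acadm*, the medium-chain dehydrogenase of fatty acid oxidation, measured 1577 and 1732 units under hairpins 1 and 2, against 3213 units in NT (log2 difference -0.96 ± 0.27 (SE), limma adjusted p = 0.106). *Pcx*, pyruvate carboxylase, was higher, at 1036 and 1027 units in KD against 534 units in NT, with a log2 difference of 0.95 ± 0.32 (SE, limma adjusted p = 0.209). Of the glycolysis genes, *Hk1*, a hexokinase, measured 3127 and 3136 units in KD and 1985 units in NT, and *Ldhb*, a lactate dehydrogenase subunit, 539 and 336 units in KD and 1073 units in NT on its brighter probe set. The lists of complex II, cytochrome c and electron carriers, other genes of mitochondrial DNA, mitochondrial translation, carriers and channels, antioxidants, and dynamics and cristae had 0 named genes. As with the ribosomal proteins, these genes are those the authors' selection left with a name.

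**Figure D4:**
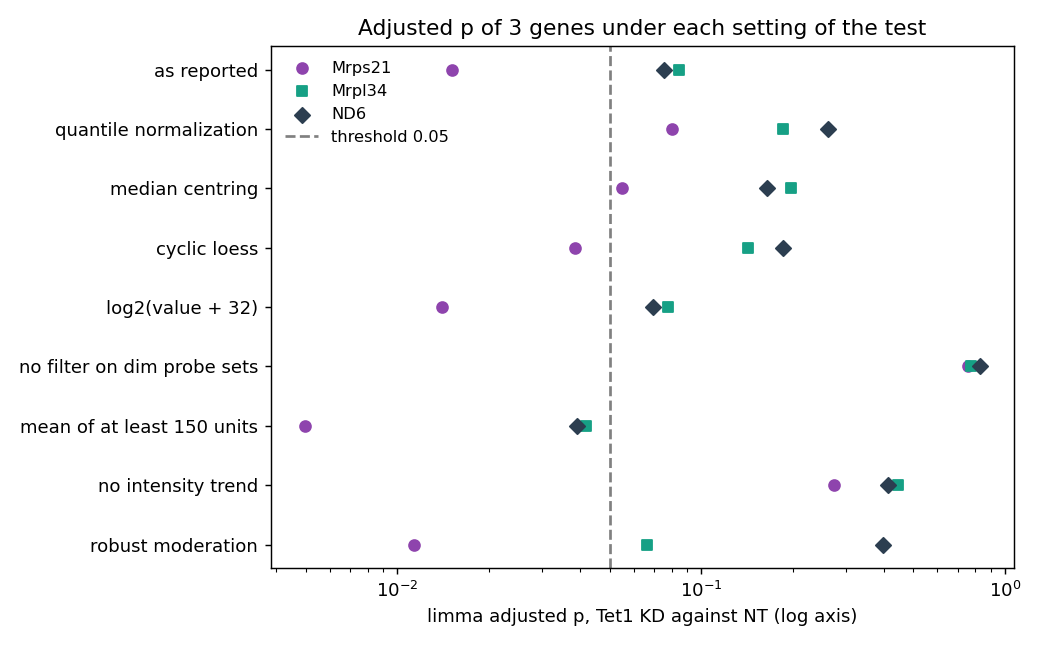
Adjusted p of limma's comparison of *Tet1* KD with NT (log axis) for *Mrps21*, *Mrpl34* and *ND6* under the reported setting and 8 others, with the threshold of 0.05 dashed. *Mrps21* lies under the threshold in the reported setting and 4 of the 8 others, and *Mrpl34* and *ND6* in 1 of the 8, the minimum mean of 150 units.

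The nuclear genes of the mitochondrial ribosome share general activators with many other mitochondrial genes, among them NRF1, the ETS factor GABPA and YY1. RefSeq promoters (GRCm38.p6, from 250 bases before to 50 after the start) were found for the 6 ribosomal protein genes. Those of *Mrps21* and *Mrpl34*, the ribosomal protein genes with the largest differences, and of *Mrpl23*, with the smallest, are shown 5′ to 3′ on the gene's strand. They lie at chr3:95871465-95871764 (minus strand), chr8:71464676-71464975 (plus strand) and chr7:142532782-142533081 (plus strand). Capitals mark the letters CCGGAAG of a GABPA site or their reverse complement.
Mrps21: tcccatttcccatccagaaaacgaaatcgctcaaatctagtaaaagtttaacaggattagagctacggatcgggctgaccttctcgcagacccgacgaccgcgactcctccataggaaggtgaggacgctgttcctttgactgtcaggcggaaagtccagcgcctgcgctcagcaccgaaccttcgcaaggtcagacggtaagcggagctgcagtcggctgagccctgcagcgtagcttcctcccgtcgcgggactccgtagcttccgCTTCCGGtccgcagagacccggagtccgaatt
Mrpl34: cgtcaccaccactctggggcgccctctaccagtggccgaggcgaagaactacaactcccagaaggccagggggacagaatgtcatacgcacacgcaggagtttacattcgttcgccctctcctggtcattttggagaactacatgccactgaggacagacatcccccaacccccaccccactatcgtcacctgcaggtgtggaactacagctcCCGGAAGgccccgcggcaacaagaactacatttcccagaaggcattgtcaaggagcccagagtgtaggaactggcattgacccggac
Mrpl23: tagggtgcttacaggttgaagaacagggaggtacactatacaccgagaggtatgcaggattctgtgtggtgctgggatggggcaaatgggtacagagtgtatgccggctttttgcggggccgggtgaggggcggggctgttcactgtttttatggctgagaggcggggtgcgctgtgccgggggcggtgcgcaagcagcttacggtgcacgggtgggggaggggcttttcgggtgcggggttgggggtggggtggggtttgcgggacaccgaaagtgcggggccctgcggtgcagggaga
The GABPA letters were in 2 of the 6 promoters and in 8.86% of all 32851 promoters of this length, searched on both strands. They lay 37 to 31 bases before the start in *Mrpl34* and at bases 19 to 25 after it, on the other strand, in *Mrps21*. The promoter of *Mrpl11* had no match, and its log2 difference was -0.96, against -1.02 for *Mrpl34*. A relation of matches to the size of the difference was not tested. The letters GCATGCGC of NRF1 and AGATGGCG of YY1 were in 0 of the 6 promoters, and in 2.71% and 1.95% of all promoters, and no matches overlapped. A match describes the letters of the window and not binding, and no match says nothing of the factor. The promoters held from 8 (*Mrpl20*) to 28 (*Mrps21*) CpG dinucleotides, the sequence in which TET1 acts on methylated cytosine, against a median of 7 over all promoters, and no methylation of these cells was analysed here.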

How the data were processed

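Total RNA of 3 ATDC5 cultures was profiled on Affymetrix whole-transcript mouse gene arrays. Normalization to an invariant set was done by the authors in dChip, and they deposited a model-based intensity per probe set for 35512 probe sets; mm9 is the build named in the submitters' processing notes, and tool versions are not given in the sources used here. A second deposited file holds the same intensities for 1524 probe sets of the authors' comparison, with gene names and, for NT, the SE of the intensity. Its folds, bounds and differences are the authors' results and were not used. Its header numbers the arrays and skips 1 number; such an array was not analysed here. Intensities of both files were equal.

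A floor of 10 units was set before log2 transformation. Probe sets averaging 100 units or more (27311) were fitted in limma 3.58.1 (R 4.3.3; lmFit, eBayes with intensity trend), *Tet1* KD against NT, two-sided, with Benjamini-Hochberg adjustment at 0.05. The fit leaves 1 residual degree of freedom and takes the spread of the KD arrays for that of NT. On simulated data more of its calls were false on average than the threshold states, so adjusted p-values are to be read as optimistic. The simulated arrays had the same spread in NT and KD, so they do not test that assumption. Symbols were updated by RefSeq accession, symbol or older symbol (GRCm38.p6). All member genes were named, with full values for each. Other genes came from fixed lists, apart from the target *Tet1* and from *Gpd2*, *Slc25a14* and *Cmpk2*, chosen after their values were seen. The members and lists were chosen with earlier results of these data known. Alternatives were the normalization, the handling and filter of dim probe sets, the moderation and leaving out a KD array. The number of arrays limits the precision.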

Additional observations from a re-analysis of the deposited data

How the results depend on the processing

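The direction of all 9 probe sets held under each of the 8 alternative settings of the test and without either hairpin. The settings of the filter, the intensity trend and robust moderation leave the log2 difference as it was. The authors had also picked these rows for their difference on these same arrays, so the held direction is a description. The median log2 difference of the 8 genes stayed between -0.97 and -0.84 under those settings, was -0.96 over all 9 probe sets, and ran from -1.03 to -0.81 when a KD array was left out. Leaving out an array left no residual degree of freedom, so limma gave no counts there. The number of the 9 that passed limma was 0 after quantile normalization (9 at an unadjusted p under 0.05), median centring (6), without a filter (8) and without the intensity trend (9), and 3 with a minimum mean of 150 units. Over all probe sets the reported counts were 106 lower and 372 higher (77.8% higher), against 34 and 188 after quantile normalization, 48 and 350 (87.9% higher) after median centring, 50 and 311 after cyclic loess, 21 and 87 without the trend, and 0 and 0 without a filter (852 and 1377 at an unadjusted p under 0.05). Median centring and cyclic loess moved the median of all probe sets by 0.12 and 0.11. The number of the 9 at the size criteria was 1 at a fold of at least 2.5, the threshold of the methods (*ND6*), and 9 when either KD array was left out. The causes were not tested. No paired analysis was possible because the NT group has 1 array and shares fewer than 2 replicate numbers with the KD group. With 1 NT array, a difference from NT cannot be told apart from a deviation of that array.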

Other observations

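Other named rows for mitochondrial proteins lay outside the lists and were chosen after their values were seen. *Gpd2*, the mitochondrial glycerol phosphate dehydrogenase, which feeds electrons into the chain, measured 1617 and 1714 units under hairpins 1 and 2, against 902 ± 46.5 units (dChip SE) in NT, and did not pass (log2 difference 0.88 ± 0.29 (SE), limma adjusted p = 0.195). *Slc25a14*, a carrier of the inner membrane, measured 313 and 338 units in KD and 562 units in NT (log2 difference -0.79, limma adjusted p = 0.436). *Cmpk2*, a mitochondrial nucleotide kinase that interferon induces, rose to 1512 and 1627 units in KD, against 179 units in NT (log2 difference 3.13 ± 0.33 (SE), limma adjusted p = 8.72e-05), a call lost with no filter on dim probe sets (0.758).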
